A study of Mus musculus with 10 samples.

Results

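The genes described here are 10 mouse genes of MHC class II antigen presentation, out of the 55487 genes with counts in the table of ovary RNA. They are H2-Aa, H2-Ab1, H2-Eb1, H2-DMa, H2-DMb1, H2-DMb2, H2-Oa, H2-Ob, Cd74 and Ciita, and they were chosen by name with their counts in these ovaries known. Their values are therefore a description, given without p-values, and all 10 passed the filter on low counts that left 18956 genes for testing. RNA was taken from ovaries of female mice with the background of C57BL/6J, with a library for each ovary. The Control group was 4 mice aged 8 weeks, the Aged group was 3 mice aged 11 months by the labels, and the Aged+CF group was 3 mice of that age given CEFFE. CEFFE is a cell-free protein extract of fat tissue, given by tail vein in 200 μL at 3 μg/μL, with repeats at intervals of 2 days over 2 weeks, while Control and Aged mice received saline by the study's methods, which put the aged mice at a slightly younger age. All groups had been given 10 IU of PMSG, a gonadotropin that drives follicle growth, 48 h before collection. Ovaries are named here by group and by the replicate number in their labels. The total of counted reads in an ovary was 15761789 at the lowest and 21318254 at the highest, so that a count of 3, taken as the floor, stood for 0.141 to 0.212 CPM (counts scaled to library size with TMM factors). Values are given as CPM unless stated otherwise, and group values as the mean ± SD over ovaries.

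MHC class II molecules are surface proteins made of an α and a β chain that show peptides from engulfed proteins to CD4 T cells. Dendritic cells, macrophages and B cells carry them without stimulation, and other cells can be induced to do so by interferon gamma, in both cases through the coactivator Ciita. The ovary holds resident macrophages and other leukocytes among its follicles, corpora lutea and stroma, and in RNA from a whole ovary fewer cells of a type and less RNA per cell cannot be told apart.

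The labelled tissue was checked against its markers. The 10 oocyte markers summed to 399 ± 63.3 CPM in Control (n = 4), 63.3 ± 47.4 CPM in Aged (n = 3) and 158 ± 36.1 CPM in Aged+CF (n = 3), and the 10 granulosa cell markers to 5859 ± 964, 3713 ± 480 and 3807 ± 832 CPM. Markers of both cell types were thus present in all 10 ovaries, with the lowest oocyte sum, 8.77 CPM, in Aged replicate 34.

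Among the classical chains, H2-Aa encodes the α chain of the I-A molecule. Its CPM was 72.9, 87.7, 84.6 and 75.2 in Control replicates 31, 32, 33 and 34, 166, 168 and 271 in Aged replicates 31, 33 and 34, and 127, 86.2 and 185 in Aged+CF replicates 30, 32 and 34. All Aged ovaries lay above all Control ovaries, and Aged+CF replicate 32 lay inside the Control range. The log2 fold change was 1.33 (standard error 0.25) in Aged vs Control, -0.60 (standard error 0.27) in Aged+CF vs Aged and 0.73 (standard error 0.25) in Aged+CF vs Control. H2-Ab1, the β chain that pairs with it, stood at 73.4, 68.5, 81.8 and 75.3 CPM in the Control ovaries, at 102, 150 and 198 CPM in the Aged ovaries and at 99.6, 82.7 and 136 CPM in the Aged+CF ovaries, in the same order of replicates. Its Aged and Aged+CF values each lay above the Control range, and they overlapped with each other. The log2 fold change of H2-Ab1 was 1.01 (standard error 0.22) in Aged vs Control, -0.50 (standard error 0.23) in Aged+CF vs Aged and 0.50 (standard error 0.22) in Aged+CF vs Control. Without Aged replicate 34 the values of H2-Aa and H2-Ab1 against Aged were -0.35 and -0.27, and without Aged+CF replicate 34 those against Control were 0.41 and 0.29. The value of H2-Aa against Aged was -0.37 without Aged+CF replicate 32 and -0.92 without Aged+CF replicate 34.

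H2-Eb1 encodes the β chain of the I-E molecule. It was at 46.4, 64.6, 55.5 and 53.2 CPM in Control, 112, 102 and 175 CPM in Aged, and 79.1, 56.6 and 111 CPM in Aged+CF. The Aged ovaries again lay above all Control ovaries, with Aged+CF between and overlapping both. Its log2 fold change was 1.24 (standard error 0.24) in Aged vs Control and -0.66 (standard error 0.26) in Aged+CF vs Aged, and without Aged replicate 34 the latter was -0.41. The gene of its partner, H2-Ea, had 0 counts in all 10 ovaries, which at this depth allows up to 0.212 CPM. Mice with the b haplotype of the MHC, such as C57BL/6, are known to carry a deletion at the start of H2-Ea that silences it, so that H2-Eb1 RNA is made without its partner. The related locus H2-Eb2 had between 0 and 8 counts in 9 ovaries and 30 counts in Aged replicate 34, too few to pass the filter.

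H2-DMa and the H2-DMb genes encode the chains of H2-DM, which exchanges the peptides of class II molecules in the endosome. H2-DMa was at 9.69, 10.4, 8.01 and 7.85 CPM in Control, 14.4, 13.1 and 18.9 CPM in Aged and 10.4, 8.62 and 12.9 CPM in Aged+CF. The log2 fold change of H2-DMa was 0.78 (standard error 0.19) against Control in Aged and -0.54 (standard error 0.20) in Aged+CF vs Aged. H2-DMa overlaps Brd2 on the other strand, as Ciita does Dexi, H2-Eb1 does Gm20513 and H2-Oa does BC051537, and since the strand used in counting is not given, the reads of such overlaps are uncertain. H2-DMb1 had 144, 155, 151 and 170 counts in Control, 220, 179 and 381 counts in Aged and 213, 155 and 301 counts in Aged+CF, or 8.68 ± 0.856, 15.6 ± 4.70 and 11.7 ± 2.63 CPM. For H2-DMb1 the log2 fold change was 0.85 (standard error 0.22) in Aged vs Control and -0.41 (standard error 0.23) in Aged+CF vs Aged, and the latter was -0.15 without Aged replicate 34 and -0.24 without Aged+CF replicate 32.

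H2-DMb2, the copy of H2-DMb1 next to it, was far lower, at 14, 22, 12 and 24 counts in Control, 46, 18 and 152 counts in Aged and 37, 13 and 30 counts in Aged+CF. The Control ovaries had 1.02 ± 0.364 CPM, the Aged ovaries 4.13 ± 3.75 CPM and the Aged+CF ovaries 1.42 ± 0.688 CPM, and Aged replicate 33 lay inside the Control range. The log2 fold change of 2.03 (standard error 0.60) in Aged vs Control became 1.03 without Aged replicate 34, and that of -1.54 (standard error 0.65) in Aged+CF vs Aged became -0.52. The longest transcripts of H2-DMb1 and H2-DMb2 were identical at 92.8% of 1196 aligned bases, with 221 bases in a row shared, so the split of reads between the copies is uncertain. With both copies summed, the log2 fold change in Aged vs Control was 1.03.

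H2-Oa and H2-Ob encode the chains of H2-O, an inhibitor of H2-DM that is known above all from B cells. H2-Oa had 17, 8, 17 and 12 counts in Control, 33, 17 and 79 counts in Aged and 15, 8 and 23 counts in Aged+CF. After scaling, H2-Oa was at 0.747 ± 0.222 CPM in Control, 2.51 ± 1.65 CPM in Aged and 0.799 ± 0.314 CPM in Aged+CF, with all Aged ovaries above those of both other groups. Its log2 fold change of 1.74 (standard error 0.47) in Aged vs Control became 1.12 without Aged replicate 34, and that of -1.64 (standard error 0.51) in Aged+CF vs Aged came 0.64 closer to 0. H2-Ob had 16, 13, 69 and 19 counts in Control, 49, 18 and 99 counts in Aged and 17, 39 and 29 counts in Aged+CF. Its groups overlapped in all 3 comparisons, and Control replicate 33, at 3.50 CPM, exceeded all Aged ovaries but replicate 34. Without that Control ovary the log2 fold change of H2-Ob in Aged vs Control moved from 1.04 to 1.81, while without Aged replicate 34 it was 0.45. In Aged+CF vs Control it was -0.05, and with 1 ovary left out it ran from -0.42 without Aged+CF replicate 32 to 0.72 without Control replicate 33.

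Cd74 encodes the invariant chain, which fills the peptide groove of new class II molecules and takes them to the endosome. It was the most abundant of the 10 genes, at 162, 188, 183 and 160 CPM in Control, 386, 291 and 612 CPM in Aged and 280, 193 and 378 CPM in Aged+CF. All Aged and all Aged+CF ovaries lay above all Control ovaries, Aged+CF replicate 32 by the smallest distance. The log2 fold change of Cd74 was 1.31 (standard error 0.26) in Aged vs Control, -0.60 (standard error 0.28) in Aged+CF vs Aged and 0.71 (standard error 0.26) in Aged+CF vs Control. Without Aged replicate 34 the value against Aged was -0.28, without Aged+CF replicate 32 it was -0.39, and without Aged+CF replicate 34 the value against Control was 0.45. Ciita, which binds no DNA itself and switches on the genes above, had 3.79, 3.93, 9.18 and 6.89 CPM in Control, 15.4, 5.57 and 23.2 CPM in Aged and 7.68, 9.07 and 14.2 CPM in Aged+CF. Here the groups overlapped in every comparison, with Aged replicate 33 and Aged+CF replicates 30 and 32 inside the Control range. Its log2 fold change was 1.31 (standard error 0.47) in Aged vs Control and -0.51 (standard error 0.50) in Aged+CF vs Aged, and without Aged replicate 34 these were 0.86 and -0.05. Its value against Aged was -0.90 without Aged replicate 33, -0.34 without Aged+CF replicate 30 and -0.82 without Aged+CF replicate 34.

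**Figure D1:**
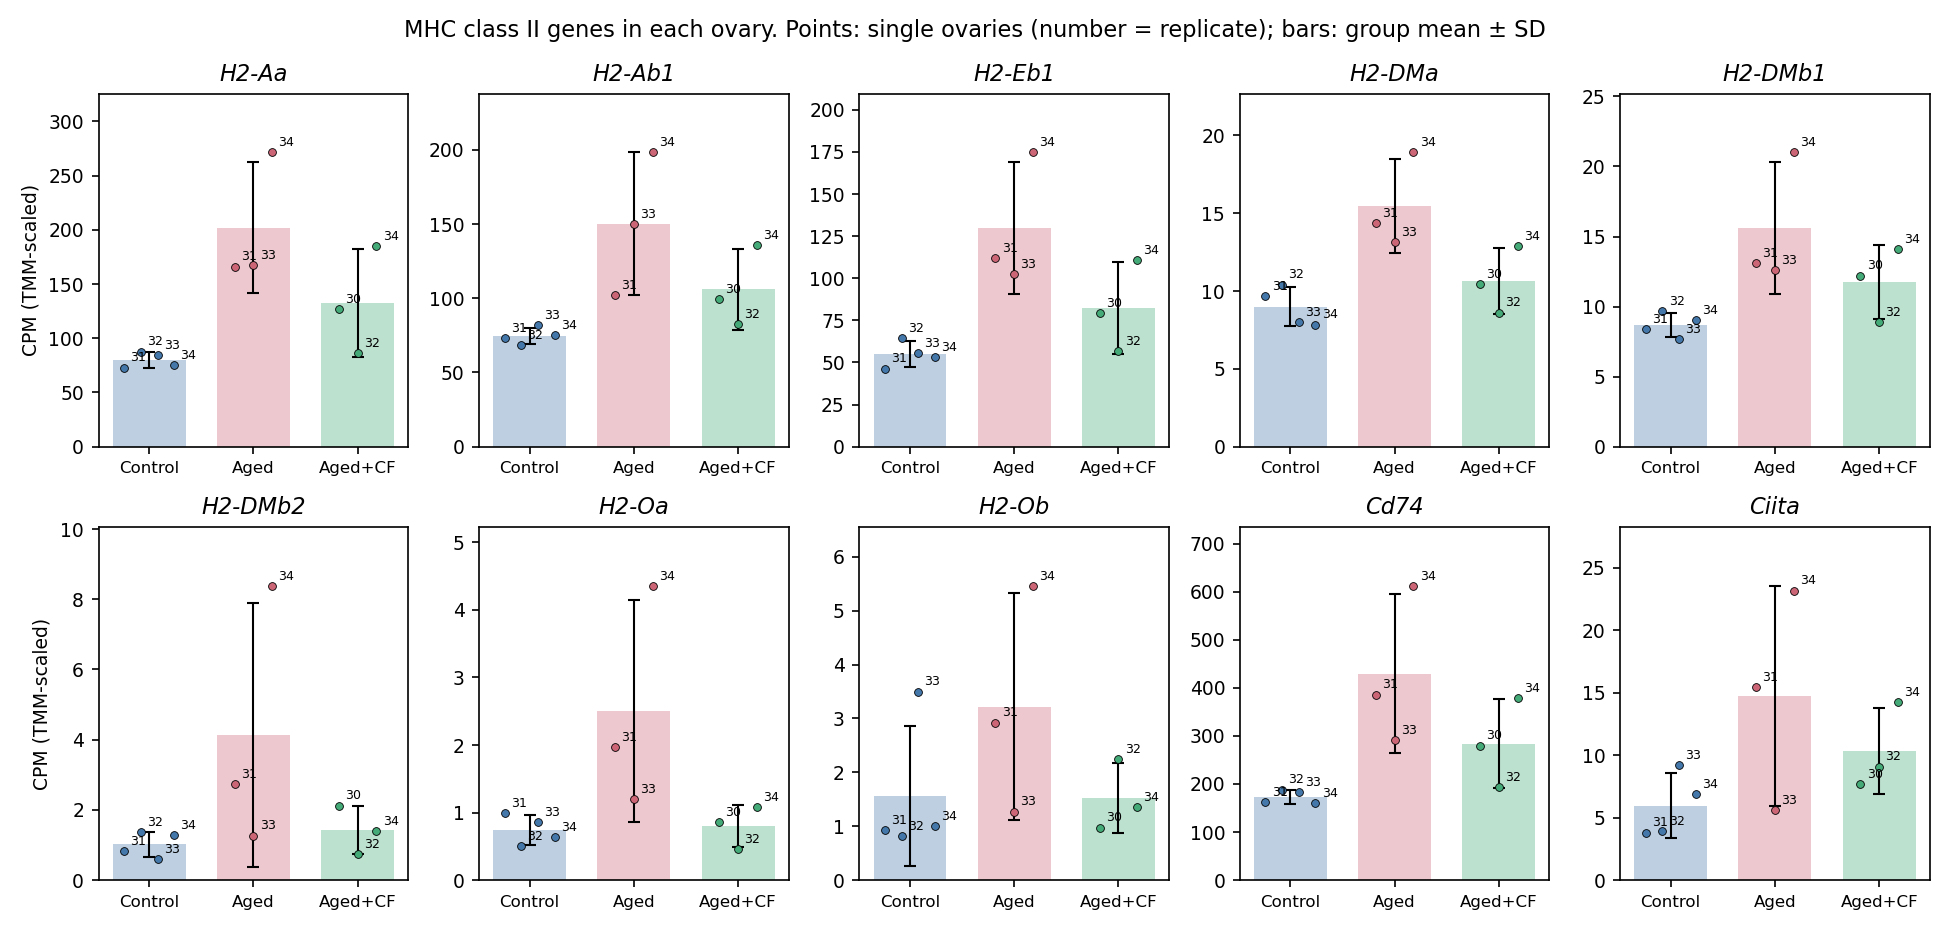
CPM of the 10 MHC class II genes in each ovary, with group on the x axis and TMM-scaled CPM on the y axis; points are single ovaries labelled with their replicate number, bars are group means and error bars are SD (n = 4, 3 and 3). Aged replicate 34 is the highest Aged ovary in all 10 panels, and Cd74 reaches 612 CPM there.

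In Aged vs Control the 10 genes had a median log2 fold change of 1.27, with a range of 0.78 to 2.03, against a median of -0.00053 over all 18956 genes tested. It was -0.60 in Aged+CF vs Aged, with a range of -1.64 to -0.41, and 0.50 in Aged+CF vs Control, with a range of -0.05 to 0.79. The medians over all genes were -0.021 and -0.028 there. The Aged mean exceeded that of both other groups for all 10 genes, and the Aged+CF value exceeded that of Control for 9, the exception being H2-Ob. The same 3 Aged ovaries enter the comparisons with Control and with Aged+CF, so that a high Aged ovary moves both. Within the Aged group, replicate 34 was the highest ovary for all 10 genes and replicate 33 the lowest for 8. Within Aged+CF, replicate 34 was the highest for 8 genes and replicate 32 the lowest for 8. Without Aged replicate 34 the median against Control was 0.93, and that of Aged+CF against Aged was -0.37. The summed CPM of the 10 genes ran from 380 to 436 in Control, from 746 to 1338 in Aged and from 448 to 855 in Aged+CF.

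A call was a fold change of at least 1.5 with p under 0.05 by edgeR's quasi-likelihood F test, either adjusted by the Benjamini-Hochberg method over all genes tested or unadjusted. In Aged vs Control, 8 of the 10 genes were called at adjusted p, where 11.1% of all genes tested were, and 9 at unadjusted p, where 18.2% of all were, and DESeq2 called 9 at adjusted p, where it called 14.6% of all. The 8 became 5 without Control replicate 31 (8.50% of all genes) and 4 without Control replicate 32 (5.73%), 33 (8.12%) or 34 (5.74%). In Aged+CF vs Aged, edgeR called 0 of 10 at adjusted p, against 0.00528% of all genes, and 4 at unadjusted p, against 7.96% of all, and the Wald test of DESeq2 called 0 at adjusted p, against 2.33% of all. The 4 became 1 without Aged replicate 34 (12.2% of all genes) or Aged+CF replicate 32 (7.77%) and 2 without Aged+CF replicate 30 (6.12%). In Aged+CF vs Control, edgeR called 0 of 10 at adjusted p, against 0.179% of all genes, and 2 at unadjusted p, against 7.69% of all, and DESeq2 called 0 at adjusted p, against 2.79% of all. The 2 became 4 without Aged replicate 33 (8.67% of all genes), 5 without Aged+CF replicate 32 (4.54%) and 0 by edgeR without Aged+CF replicate 34 (7.92%). The groups did not overlap for 7 of the 10 genes between Aged and Control (27.5% of all genes tested), for 2 between Aged+CF and Aged (18.6% of all) and for 2 between Aged+CF and Control (21.9% of all). Because the genes were chosen with these counts known, nothing is read from these numbers. The gene lists that follow were also chosen with earlier results of these data known. Their calls and p-values are descriptions and not independent tests.

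Levels of different genes were compared per length, as FPKM. In Control the order was Cd74 (59.2 ± 4.74 FPKM), H2-Aa (17.6 ± 1.52), H2-Eb1 (16.2 ± 2.09), H2-Ab1 (14.3 ± 1.22), H2-DMb1 (4.11 ± 0.358), H2-DMa (1.34 ± 0.177), Ciita (0.484 ± 0.215), H2-DMb2 (0.364 ± 0.127), H2-Oa (0.220 ± 0.0669) and H2-Ob (0.175 ± 0.147). In Aged, Cd74 stood at 136 ± 60.3 FPKM, H2-Aa at 40.9 ± 14.6 FPKM and H2-Ob at 0.337 ± 0.236 FPKM. The levels of H2-Aa, H2-Eb1 and H2-Ab1 lay within their spread of each other in Aged and Aged+CF, although H2-Aa exceeded H2-Eb1 in 10 of 10 ovaries and H2-Eb1 exceeded H2-Ab1 in 9 of 10. The order of Ciita and H2-DMb2 varied between ovaries, with Ciita higher in 6 of 10, and H2-Oa exceeded H2-Ob in 8 of 10.

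Ratios of FPKM were also taken within each ovary. Cd74 had 3.31 to 3.47 times the FPKM of H2-Aa in the 4 Control ovaries, 3.62, 2.70 and 3.51 times in Aged replicates 31, 33 and 34, and 3.18 to 3.48 times in Aged+CF. Of the summed FPKM of the 10 genes, Cd74 made up 51.9% ± 0.896 in the Control ovaries, 53.5% ± 4.34 in the Aged ovaries and 53.8% ± 0.786 in the Aged+CF ovaries. H2-Aa relative to H2-Ab1, the chains of 1 molecule, stood at 1.23 ± 0.157 in the Control, 1.57 ± 0.290 in the Aged and 1.40 ± 0.189 in the Aged+CF ovaries, which overlap, and H2-Eb1 relative to H2-Ab1 ran from 0.975 to 1.69 over the 10 ovaries. H2-DMb1 relative to H2-DMa was 3.11 ± 0.387, 3.17 ± 0.328 and 3.50 ± 0.219 in the same groups. Among the low genes, the FPKM of the H2-DM genes relative to the H2-O genes ran from 7.85 to 28.0 within Control alone. The share of H2-DMb2 in H2-DMb was 5.67% to 9.70% in Control, 13.7%, 7.07% and 23.2% in Aged replicates 31, 33 and 34, and 5.97% to 11.6% in Aged+CF.

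How far the 10 genes moved together was described by correlating the log2 CPM of each with the mean standardized log2 CPM of the other 9 over the 10 ovaries. Pearson's r was highest for Cd74 (0.98), H2-Eb1 (0.97) and H2-Aa (0.96) and lowest for Ciita (0.78) and H2-Ob (0.58). Without the 2 ovaries farthest from the median, Aged replicates 34 and 31, r was 0.98 for Cd74 and 0.99 for H2-Aa, but 0.46 for Ciita, 0.40 for H2-DMb2 and -0.11 for H2-Ob, whose relation thus rests on those ovaries. After subtracting group means it was 0.97 for Cd74, 0.88 for H2-Aa, 0.68 for Ciita and 0.34 for H2-Ob. These are descriptions, since the ovaries share their groups and no p was computed.

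Of the 10 genes, 8 lie within 224335 bases of chromosome 17, from 34092340 to 34316674 on GRCm38 in the GENCODE M21 annotation, while Ciita lies on chromosome 16 (10480059 to 10528418) and Cd74 on another chromosome. From the start of this block the order is H2-Oa (34092340 to 34095234), H2-DMa (34119541 to 34139101), H2-DMb2 (34143307 to 34151555), H2-DMb1 (34153072 to 34160230), H2-Ob (34238903 to 34254414), H2-Ab1 (34257689 to 34269419), H2-Aa (34282744 to 34287823) and H2-Eb1 (34305867 to 34316674). H2-Aa is on the reverse strand and the others are on the forward strand. The block holds 21 annotated genes, of which 14 passed the filter on low counts, 6 of them outside the 10 class II genes. Of these 6, 5 are in the list of neighbours, whose remaining gene, Btnl2, lies beyond the end of the block (34354822 to 34369495).

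The list of neighbours holds 6 genes, Tap1, Tap2, Psmb8, Psmb9, Brd2 and Btnl2, of which Tap1, Tap2, Psmb8 and Psmb9 serve the class I pathway and lie between H2-DMb1 and H2-Ob. In each of the 3 comparisons edgeR called 0 of 6 at adjusted p and 1 at unadjusted p, while DESeq2 called 0 in Aged vs Control and 1 in each of the others. In Aged vs Control the adjusted count was 1 without Aged replicate 31 and 2 without Aged replicate 33, and in Aged+CF vs Control it was 1 without Aged replicate 34. The median log2 fold change of Aged against Control was 0.48, that of Aged+CF against Aged -0.014 and that of Aged+CF against Control 0.27. Brd2, a chromatin reader that is not part of antigen presentation, was at 266 CPM in Control and 225 CPM in Aged (log2 fold change -0.24, edgeR adjusted p = 0.0822). Tap2, a subunit of the peptide pump of class I, was at 56.1 CPM in Control, 76.2 CPM in Aged and 83.2 CPM in Aged+CF (log2 fold change 0.44 in Aged vs Control, edgeR adjusted p = 0.0954), and without Aged replicate 33 it passed as a call (log2 fold change 0.64, edgeR adjusted p = 0.0206). Without Aged replicate 34 the log2 fold change of Tap2 was 0.27 (edgeR adjusted p = 0.193).

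**Figure D2:**
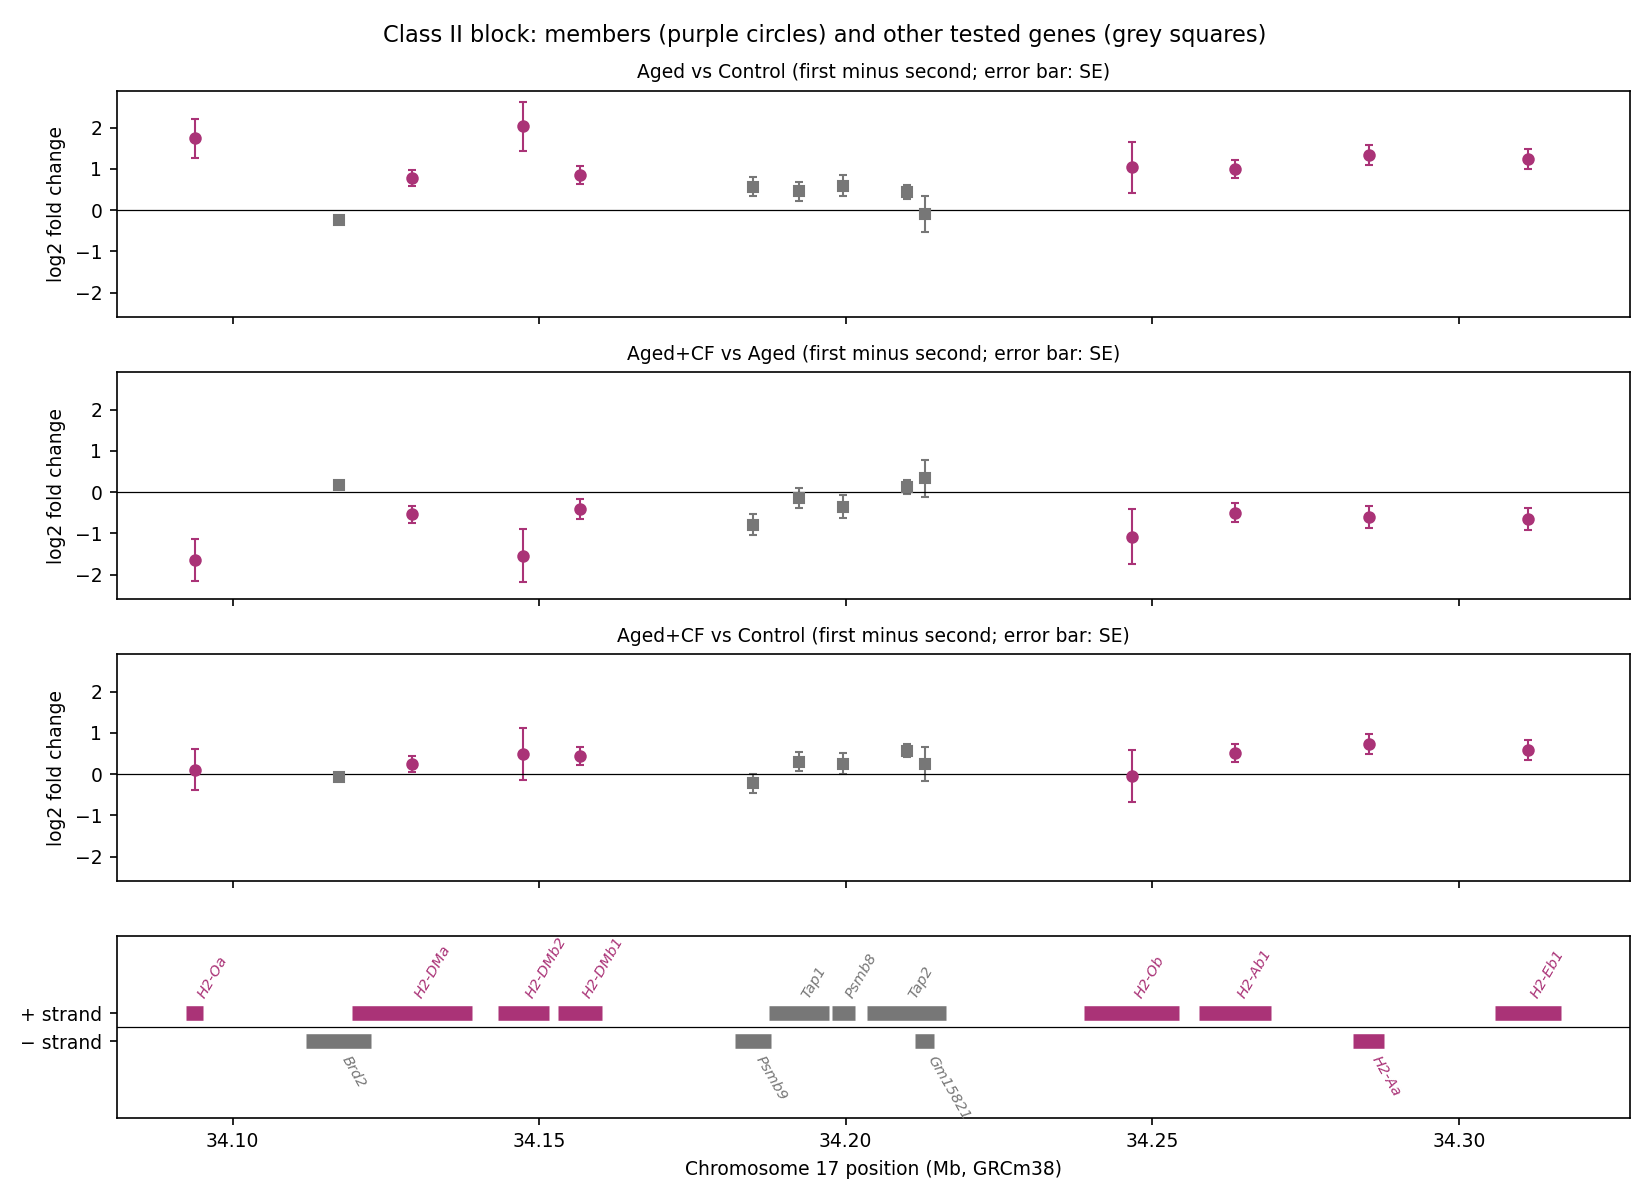
Log2 fold changes with standard errors of the tested genes of the class II block in the 3 comparisons, placed by chromosome 17 position in megabases on GRCm38, over a map of the genes by strand. The class II genes (purple circles) lie between 0.78 and 2.03 in Aged vs Control, and the lowest of the other genes (grey squares) is Brd2 at -0.24.

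Class II promoters are known for a row of short elements, the X1, X2 and Y boxes, to which the factors that recruit Ciita bind, and the promoters of the 10 genes were searched for them. The RefSeq promoter table (GRCm38.p6) matched 7 of the 10 by symbol, H2-Aa, H2-Eb1, H2-DMa, H2-DMb1, H2-DMb2, H2-Oa and H2-Ob, with 250 bases before and 50 after each start and 2 starts for H2-DMa. Both strands were searched for the Y box core GATTGG, the X1 core TAGNAAC and the X2 core TGNGTCA. The Y box core was found in all 7 genes, where 16.1% of the 32851 promoters in the table held it. The X1 core was found in 3 of the 7, against 11.4% of all promoters, and the X2 core in 2, against 15.4%. The X2 matches began 132 bases before the start of H2-Oa, on the other strand, and 86 bases before the second start of H2-DMa. No X1 core was found in either gene, so these matches are not placed next to one. Counted by promoter, with 2 for H2-DMa, the Y, X1 and X2 cores were in 7, 3 and 2 of 8. X1 and Y cores were found together in H2-DMb1, H2-Ob and H2-Eb1, with 27, 24 and 26 bases between them, where 1.74% of all promoters held both in any place. On the strand of the gene, the Y core began 44 to 91 bases before the start in 6 genes and 199 bases before the second start of H2-DMa, and H2-Eb1 had a further Y core on the other strand at 35 bases. A match is a description of letters and not of binding. An element with other letters than the core is missed, so a gene without a match may still hold it. Below are the 140 bases before the RefSeq start of the 6 genes with a Y core in that stretch, each 5′ to 3′ on the strand of the gene, with the matched cores in capitals.
H2-Eb1, chr17:34305727-34305866, forward strand, X1 core, Y core and Y core on the other strand: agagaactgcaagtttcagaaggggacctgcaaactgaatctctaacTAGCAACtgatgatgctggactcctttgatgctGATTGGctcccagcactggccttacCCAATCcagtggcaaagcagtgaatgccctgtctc
H2-DMb1, chr17:34153051-34153190, forward strand, X1 and Y cores: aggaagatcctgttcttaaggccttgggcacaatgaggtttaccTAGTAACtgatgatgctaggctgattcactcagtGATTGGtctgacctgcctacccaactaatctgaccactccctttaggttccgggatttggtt
H2-Ob, chr17:34238765-34238904, forward strand, X1 and Y cores: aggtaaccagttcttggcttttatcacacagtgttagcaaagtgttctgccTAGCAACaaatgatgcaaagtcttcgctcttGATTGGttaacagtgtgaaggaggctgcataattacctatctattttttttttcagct
H2-DMb2, chr17:34145109-34145248, forward strand, Y core: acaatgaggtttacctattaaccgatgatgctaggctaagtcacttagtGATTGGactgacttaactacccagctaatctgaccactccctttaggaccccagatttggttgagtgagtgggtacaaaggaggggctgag
H2-Aa, chr17:34287824-34287963, reverse strand, Y core: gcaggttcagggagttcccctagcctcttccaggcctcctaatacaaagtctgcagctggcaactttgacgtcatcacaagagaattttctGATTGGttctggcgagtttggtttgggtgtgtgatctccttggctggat
H2-Oa, chr17:34092239-34092378, forward strand, X2 core on the other strand and Y core: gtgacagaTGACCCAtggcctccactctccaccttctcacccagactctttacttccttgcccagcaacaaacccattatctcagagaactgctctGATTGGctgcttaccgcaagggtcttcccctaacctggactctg

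The other genes of the pathway were counted from lists of 50 genes in all, of which 44 were tested. In Aged vs Control, 9 of the 44 rose by edgeR at adjusted p, where 11.1% of all genes tested were called, and 17 were called at unadjusted p, against 18.2% of all. All 17 were higher in Aged, the median log2 fold change was 0.34, and DESeq2 called 14, all higher, against 14.6% of all. The adjusted count was 4 without Control replicate 32 (5.73% of all genes) and 5 without Control replicate 34 (5.74%), and without Aged replicate 34 the unadjusted count was 11 (22.1%) and the median 0.21. In Aged+CF vs Aged, edgeR called 0 of 44 at adjusted p (0.00528% of all genes) and 6 at unadjusted p (7.96%), all lower in Aged+CF, DESeq2 called 1 (2.33%) and the median was -0.18. Without Aged replicate 34 edgeR called 2 at adjusted p (2.93% of all genes) and the median was -0.079, and without Aged+CF replicate 30 the unadjusted count was 2 (6.12%). In Aged+CF vs Control, edgeR called 0 of 44 at adjusted p (0.179% of all genes) and 5 at unadjusted p (7.69%), 3 higher and 2 lower, DESeq2 called 3 (2.79%) and the median was 0.13. EdgeR called 1 at adjusted p in that comparison without Aged replicate 34 (2.06% of all genes).

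The 12 genes of class II processing cut the invariant chain and antigens in the endosome or turn class II molecules over. Of these, 3 rose in Aged by edgeR at adjusted p, against 11.1% of all genes tested. DESeq2 called 5, all higher, against 14.6% of all. Ctss, the cathepsin that makes the last cut in the invariant chain, was at 59.8, 59.7, 77.1 and 58.9 CPM in Control, 135, 137 and 295 CPM in Aged and 115, 100 and 136 CPM in Aged+CF. It rose in Aged by 1.56 on the log2 scale (standard error 0.26, edgeR adjusted p = 0.00764), in 3 of 3 ovaries above all Control ovaries, while in Aged+CF vs Aged its log2 fold change was -0.69 (edgeR adjusted p = 0.27). Ctsb and Ctsd, broad lysosomal proteases, rose from 907 to 1535 CPM (log2 fold change 0.76, edgeR adjusted p = 0.0177) and from 590.2 to 982 CPM (log2 fold change 0.73, edgeR adjusted p = 0.00967). The call of Ctsb was lost without Control replicate 32 or 34 (edgeR adjusted p = 0.0529 and 0.0507) and without Aged replicate 34, where its log2 fold change of 0.55 was short of the fold of 1.5. The list had a median of 0.64 for Aged against Control, -0.35 for Aged+CF against Aged and 0.22 for Aged+CF against Control, and in the last 2 edgeR called 0 of 12 at adjusted p, 2 and 3 at unadjusted p, and DESeq2 called 1 and 2. The median against Aged was -0.14 without Aged replicate 34, where edgeR called 1 at adjusted p against Control, and without Aged+CF replicate 30 it called 1 at unadjusted p against Aged.

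The 14 genes of class II transcription had a median log2 fold change of 0.022 in Aged vs Control. It ran from -0.015 without Control replicate 33 to 0.096 without Aged replicate 33. DESeq2 called 3 of the 14, all higher, against 14.6% of all genes tested. By edgeR at adjusted p 2 rose in Aged, against 11.1% of all. These were Spi1, which encodes the myeloid factor PU.1 (10.5 to 18.5 CPM, log2 fold change 0.82, edgeR adjusted p = 0.0338), and Prdm1, a repressor of Ciita in plasma cells (4.93 to 8.11 CPM, log2 fold change 0.72, edgeR adjusted p = 0.0301). Their ovaries did not overlap between Aged and Control, which was so for 27.5% of all genes tested. The call of Spi1 was lost in 7 of 10 cases of 1 ovary left out. For Spi1 edgeR's adjusted p was 0.0741, 0.0759, 0.0804 and 0.0594 without Control replicates 31, 32, 33 and 34 and 0.0509 and 0.0520 without Aged+CF replicates 30 and 34. The log2 fold change of Spi1 was 0.50 without Aged replicate 34, short of the fold of 1.5. For Prdm1 edgeR's adjusted p was 0.0666, 0.0698 and 0.0576 without Control replicates 32, 33 and 34 and 0.0756 and 0.0579 without Aged replicates 31 and 33, so that its call was lost there too. The list also holds the RFX and NF-Y subunits that bind the X1 and Y boxes, none of which was called at adjusted or unadjusted p or by DESeq2. Of 10 genes leading from interferon gamma to Ciita, Ifng itself had 0 to 7 counts per ovary and was not tested. DESeq2 called 2 of the 9 tested in Aged vs Control, all higher, against 14.6% of all genes. By edgeR at adjusted p 1 gene rose in Aged, against 11.1% of all. That gene was Ifngr1, a chain of the interferon gamma receptor, with 31.3 CPM in Control and 55.1 CPM in Aged (log2 fold change 0.82, edgeR adjusted p = 0.0177). Jak1, the kinase below the receptor and the most abundant of the list, had a log2 fold change of -0.50 in Aged vs Control (edgeR adjusted p = 0.0252), short of the fold of 1.5.

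Of 12 genes of T cell contact, 9 were tested and 3 rose in Aged by edgeR at adjusted p, against 11.1% of all genes tested. DESeq2 called 4, all higher, against 14.6% of all. Icos, a T cell costimulatory receptor, rose from 0.405 to 1.89 CPM (log2 fold change 2.21, edgeR adjusted p = 0.0166), and Cd28, the main receptor of that kind, from 2.26 to 8.71 CPM (log2 fold change 1.94, edgeR adjusted p = 0.0156). Cd274, which encodes the inhibitory ligand PD-L1, rose from 3.51 to 7.59 CPM (log2 fold change 1.11, edgeR adjusted p = 0.0187). Without Control replicate 32 edgeR called 1 gene of this list at adjusted p, with Icos at 0.0511 and Cd274 at 0.0552, and without Control replicate 34 the call of Cd274 was lost (edgeR adjusted p = 0.0565). Cd28 had another order of Aged ovaries than the class II genes, at 7.75, 14.7 and 3.64 CPM in replicates 31, 33 and 34. The lists of transcription, interferon gamma and T cell contact had 0 genes called by edgeR at adjusted p in the comparisons of Aged+CF with either group, except that without Aged replicate 34 the lists of transcription and T cell contact had 1 each against Aged. At unadjusted p they had 1, 0 and 3 against Aged and 0, 1 and 1 against Control, and DESeq2 called 0, 0 and 0 against Aged and 0, 0 and 1 against Control. The medians of the interferon gamma and T cell contact lists in Aged vs Control were 0.070 and 0.74, and without Aged replicate 34 they were 0.026 and 0.26.

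Markers of leukocytes moved with the class II genes. For the marker lists here and below, edgeR called 11.1% of all genes tested in Aged vs Control at adjusted p. That share was 8.50%, 5.73%, 8.12% and 5.74% without Control replicates 31, 32, 33 and 34. It was 9.49%, 9.49% and 16.2% without Aged replicates 31, 33 and 34. Without Aged+CF replicates 30, 32 and 34 it was 8.98%, 10.4% and 9.42%. The most abundant gene of a list is here the highest by mean CPM over all 10 ovaries, which need not be the highest in each group. The 10 general leukocyte markers summed to 166, 183, 169 and 188 CPM in Control, 264, 251 and 574 CPM in Aged and 224, 247 and 281 CPM in Aged+CF, in order of replicate number. By edgeR at adjusted p 8 of 10 rose in Aged, with a median log2 fold change of 1.10, and DESeq2 called 9, all higher. Laptm5, the most abundant, rose from 45.6 to 90.0 CPM (log2 fold change 0.98, edgeR adjusted p = 0.0438). The 8 became 4 without Control replicate 34 and 5 without Control replicate 31, 32 or 33, Aged replicate 34 or Aged+CF replicate 30, 32 or 34. The median was 0.67 without Aged replicate 34, and Laptm5 was at 0.45, short of the fold of 1.5. The call of Laptm5 was also lost without Control replicate 31, 32, 33 or 34 (edgeR adjusted p = 0.0915, 0.0939, 0.0742 and 0.105) and without Aged+CF replicate 30, 32 or 34 (0.0657, 0.0597 and 0.0636). The 14 macrophage markers summed to 472, 517, 544 and 531 CPM in Control, 692, 727 and 1378 CPM in Aged and 693, 661 and 805 CPM in Aged+CF. By edgeR at adjusted p, 5 of these rose in Aged, with a median of 0.51, while DESeq2 called 6 higher and 1 lower, and Gpnmb, the most abundant, rose from 68.2 to 302 CPM (log2 fold change 2.15, edgeR adjusted p = 0.00836). The 5 became 2 without Control replicate 31, 1 without Control replicate 32 or 34, 8 without Aged replicate 31 and 3 without Aged replicate 34, where Gpnmb was at 1.41 on the log2 scale (edgeR adjusted p = 0.00174). In both lists Aged replicate 34 was highest, as for the class II genes.

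B cell, plasma cell and T cell markers showed the same ovary far from the others. The 12 B cell markers summed to 11.0, 10.6, 10.3 and 9.22 CPM in Control, 22.0, 17.4 and 69.0 CPM in Aged and 15.8, 12.3 and 13.9 CPM in Aged+CF. By edgeR 5 of the 9 tested rose in Aged, with a median of 2.31, and DESeq2 called 6, all higher. Cd22, the most abundant, rose from 4.50 to 11.7 CPM (log2 fold change 1.38, edgeR adjusted p = 0.0172). The 5 became 2 without Control replicate 32 (5.73% of all genes) or 34 (5.74%). There the call of Cd22 was lost (edgeR adjusted p = 0.0527 and 0.0512). Without Aged replicate 34 the median was 0.94 and Cd22 was at 0.90 on the log2 scale. The 12 T cell markers summed to 18.4, 16.1, 15.2 and 14.6 CPM in Control, 29.2, 25.7 and 68.3 CPM in Aged and 17.3, 22.1 and 23.0 CPM in Aged+CF. Of the 11 T cell markers tested, edgeR called 6 as rising in Aged and DESeq2 called 7, all higher. Their median was 1.57. Their most abundant gene, Lck, was at 3.81 CPM in Control and 6.48 CPM in Aged (edgeR adjusted p = 0.0948, and 0.0402 without Aged replicate 33, which is a call). Without Aged replicate 34 the log2 fold change of Lck moved from 0.77 to 0.49 (edgeR adjusted p = 0.217). The 9 plasma cell markers summed to 281 to 341 CPM in Control, 733, 759 and 2920 CPM in Aged and 377 to 811 CPM in Aged+CF. Of 8 tested, edgeR called 4 as rising in Aged and 1 as falling, which was Derl3, with a median of 1.15. DESeq2 called 5 higher and 1 lower. The 4 became 2 without Control replicate 32 (5.73% of all genes) and 1 without Control replicate 34 (5.74%). Their most abundant gene, Sdc1, is also made by epithelial cells and was lowest in Aged replicate 34, at 155 CPM. Derl3 is named after its values were seen, as is Ighm, an immunoglobulin gene of the list, which stood at 115, 9.59 and 1622 CPM in Aged replicates 31, 33 and 34.

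The 12 dendritic cell markers did not follow the class II genes as a sum, which was 349 ± 75.9 CPM in Control, 209 ± 36.8 CPM in Aged and 339 ± 28.0 CPM in Aged+CF. In Control most of it was Fscn1, an actin bundling protein also made outside dendritic cells, which fell in Aged by 1.45 on the log2 scale (edgeR adjusted p = 0.00571). Itgax, named after its values were seen, was the 1 gene of the list that rose in Aged, from 5.82 to 30.2 CPM (log2 fold change 2.38, edgeR adjusted p = 0.00740), and the list's median was 0.49, or 0.78 without Aged replicate 33 and -0.024 without Aged replicate 34. No leukocyte, macrophage, dendritic cell, B cell, plasma cell or T cell marker was at 0 in all 10 ovaries, and Fcer2a, Pax5 and Spib of B cells, Tnfrsf17 of plasma cells and Cd8a of T cells had too few counts to be tested. Irf4 and Prdm1 are also in the transcription list and Cd4 in the T cell contact list. When Aged+CF was compared with Aged or with Control, edgeR called 0 markers of these 6 lists at adjusted p. Against Aged it called 1 of macrophages without Aged replicate 33 and 1 of dendritic cells without Aged replicate 34, and against Control, without Aged replicate 34, 3 of leukocytes, 2 of macrophages and 1 of dendritic cells. At unadjusted p it called between 2 and 7 a list against Aged and between 0 and 4 against Control, and DESeq2 called 0 to 3 and 0 to 2. The part of these cells in the class II values was not tested.

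**Figure D3:**
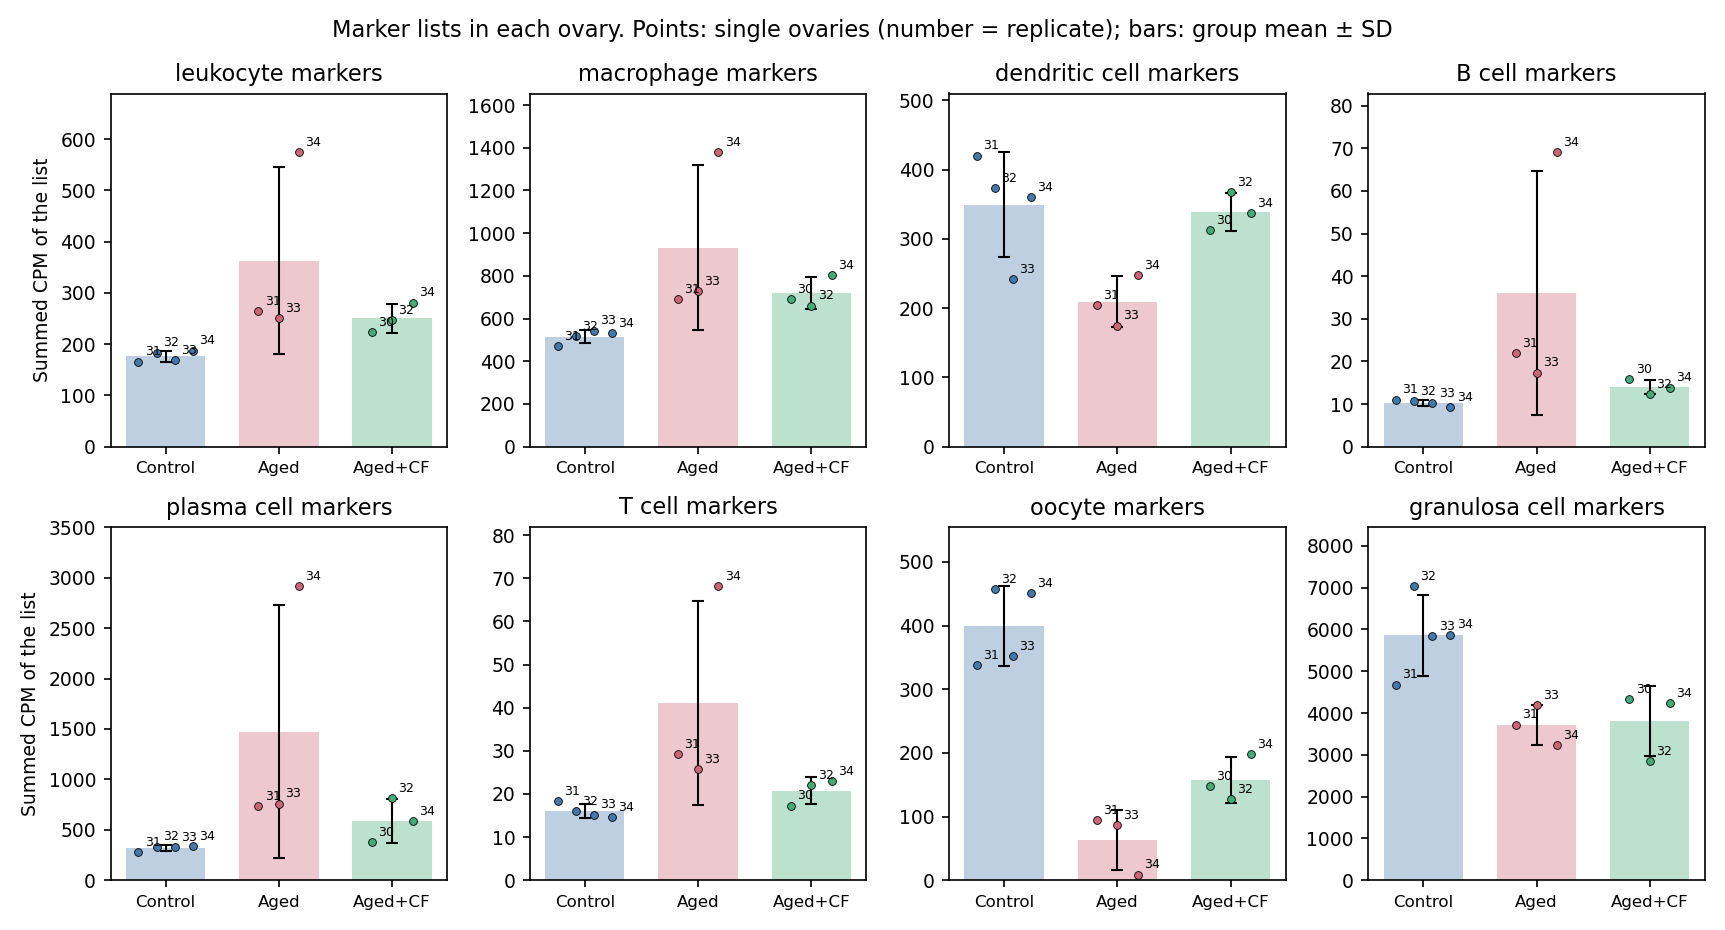
Summed CPM of 8 marker lists in each ovary, with group on the x axis and summed TMM-scaled CPM on the y axis; points are single ovaries labelled with their replicate number, bars are group means and error bars are SD (n = 4, 3 and 3). Aged replicate 34 is the highest ovary in the leukocyte (574 CPM), macrophage, B cell, plasma cell and T cell panels and the lowest in the oocyte panel (8.77 CPM).

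Markers of the ovary's own cells moved too. Of 10 oocyte markers 9 fell in Aged, with a median log2 fold change of -2.52, and Gdf9, the most abundant, fell from 96.5 to 17.3 CPM (log2 fold change -2.48, edgeR adjusted p = 0.0145). DESeq2 called 10 of these 10, all lower. The 9 of edgeR became 4 without Control replicate 32 (5.73% of all genes) and 3 without Control replicate 34 (5.74%). Of 10 theca and stroma markers 3 rose in Aged by edgeR at adjusted p, with a median of 0.29, while DESeq2 called 3 higher and 1 lower, and Cyp11a1, the most abundant, rose from 3637 to 10073 CPM (log2 fold change 1.47, edgeR adjusted p = 0.0158). Without Control replicate 32 the 3 became 1 and the call of Cyp11a1 was lost (edgeR adjusted p = 0.0527), and without Aged replicate 34 the list's median was -0.23. EdgeR called 0 of 10 granulosa cell, 0 of 9 oviduct, 0 of 10 adipocyte and 0 of 10 surface epithelium markers at adjusted p in Aged vs Control, and 4, 0, 1 and 1 at unadjusted p, while DESeq2 called 3, 0, 1 and 1, with medians of -0.71, 0.12, -0.035 and 0.048. These medians were -0.48, -1.06, -2.24 and -0.53 without Aged replicate 34, and edgeR then called 1 granulosa cell, 1 adipocyte and 1 surface epithelium marker at adjusted p. It called 2 granulosa cell markers without Aged replicate 31 or Aged+CF replicate 32, and 1 surface epithelium marker without Aged replicate 33. Their most abundant genes were Inha (2902 CPM in Control and 2015 CPM in Aged), Ovgp1, Lipe (49.6 and 90.4 CPM) and Lgr5 (35.2 and 55.8 CPM). The oviduct sum was 497 CPM in Control replicate 33, 461 CPM in Aged replicate 34 and 54.2 to 144 CPM in the other 8 ovaries, with Ovgp1 at 298 and 245 CPM in the ovaries named, so that Aged replicate 34 also differed from the other Aged ovaries in oviduct RNA. Its part in the class II values of that ovary was not tested. Compared with Aged or Control, Aged+CF had 0 markers of the oocyte, granulosa cell, theca and stroma, oviduct, adipocyte and surface epithelium lists called by edgeR at adjusted p, 0 to 2 a list against Aged and 0 to 7 against Control at unadjusted p, and 0 or 1 a list by DESeq2. With Aged replicate 34 left out, edgeR called, at adjusted p, 1 oocyte and 1 theca and stroma marker against Aged, and 8 oocyte, 1 granulosa cell and 1 surface epithelium marker against Control, the last also without Aged replicate 33.

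The mean standardized log2 CPM of the 10 class II genes was set beside that of other genes over the 10 ovaries, as a description with no p. Pearson's r with the log2 sums of marker lists was 0.94 for macrophages (Spearman's rho 0.90), 0.94 for B cells (rho 0.84), 0.94 for leukocytes (rho 0.88), 0.92 for T cells (rho 0.78), 0.88 for plasma cells (rho 0.71), -0.57 for dendritic cells (rho -0.75) and -0.91 for oocytes (rho -0.76). Without Aged replicates 34 and 31, the 2 ovaries farthest from the median, r was 0.92 for macrophages, 0.82 for B cells, 0.83 for leukocytes, 0.69 for T cells, 0.59 for plasma cells, -0.53 for dendritic cells and -0.67 for oocytes. After subtracting group means over all 10 ovaries, r was 0.90 for macrophages, 0.85 for both B cells and leukocytes, 0.77 for T cells, 0.62 for plasma cells, 0.21 for dendritic cells and -0.68 for oocytes. The remaining lists had r of -0.57 for granulosa cells, 0.56 for theca and stroma, 0.37 for oviduct, 0.35 for adipocytes and 0.13 for surface epithelium. Without the same 2 ovaries these were -0.35, 0.56, -0.20, -0.19 and -0.32. Within groups they were 0.038, -0.67, 0.62, 0.24 and 0.51. The dendritic cell sum has its largest part from Fscn1, which fell in Aged, while 9 of the 12 markers were higher in Aged.

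Among 16734 other genes with a mean of at least 1 CPM, 88 (0.526%) had r above 0.9 with the class II genes and 102 had r below -0.9. The 8 highest were Fcer1g (r = 0.97), Clec7a (0.97), Fcgr3 (0.97), Trbc2 (0.96), Cd300a (0.96), Fam43a (0.96), Ctss (0.96) and Arhgap25 (0.96). Spearman's rho was 0.90, 0.96, 0.94, 0.94, 0.96, 0.85, 0.90 and 0.77 in that order. Fcer1g encodes a signalling chain of Fc receptors, Fcgr3 an Fc receptor for IgG, Clec7a the β-glucan receptor of myeloid cells, Trbc2 a constant part of the T cell receptor and Cd300a an inhibitory receptor of leukocytes. None of the 8 is on chromosome 17, and Fam43a shares chromosome 16 with Ciita. Without the same 2 ovaries r was 0.92, 0.97, 0.89, 0.91, 0.88, 0.87, 0.92 and 0.84, and after subtracting group means 0.91, 0.98, 0.89, 0.89, 0.88, 0.95, 0.92 and 0.90. Clec7a, whose r varied least, was at 16.5 ± 1.22 CPM in Control, 29.3 to 65.8 CPM in Aged and 20.05 to 38.6 CPM in Aged+CF.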

How the data were processed

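RNA of 10 mouse ovaries was measured, 1 library each, grouped by their labels into Control (n = 4), Aged (n = 3) and Aged+CF (n = 3). The authors aligned reads to GRCm38.p4 with TopHat, named Cufflinks 2.1.1 too, and deposited unscaled counts of reads on genes. The counting tool, annotation and strand are not given in the sources used here. The deposited FPKM equals the count divided by gene length and by the column total. The table holds 55487 genes, 18869 without a count, and 55227 identifiers were found in GENCODE M21. Totals ran from 15761789 to 21318254 reads, and 3 counts were taken as the floor.

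Counts were fitted with edgeR 4.0 in R 4.3, with its filter on low counts (18956 genes left), TMM scaling and all 10 ovaries in a quasi-likelihood F test. A call needed a fold change of at least 1.5 and p under 0.05, with or without Benjamini-Hochberg adjustment. The fit was tested on simulated data with 200 changed genes. Control ovaries had a biological coefficient of variation of 0.209, Aged ovaries 0.378 and Aged+CF ovaries 0.193.

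The 10 class II genes and the gene lists were chosen with earlier results of these data known. No p-values are therefore given for the class II genes, and their calls are counted without a conclusion. The p-values of listed genes are given as a description. The lists were other class II loci, class II processing, class II transcription, interferon gamma to Ciita, T cell contact, neighbours in or next to the class II block, and markers of leukocytes, dendritic cells, macrophages, B cells, plasma cells, T cells, oocytes, granulosa cells, theca and stroma, oviduct, adipocytes and surface epithelium. Genes were named by a rule: the class II genes; of each pathway and neighbour list up to 4 genes called at adjusted p, largest change first, filled to 2 by abundance; the most abundant gene of each marker list; and the 8 tested genes of at least 1 mean CPM most correlated with the class II genes. Correlations used log2 CPM (prior count 2). Promoters, positions and transcripts were read with Python 3.11.15, pandas 2.3.3 and Biopython 1.88, and figures drawn with matplotlib 3.10.9.

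Alternatives were the Wald test and the size factors of DESeq2 1.42, no filter, a fit of only the compared groups, replicate number as a block, limma 3.58 on log2 FPKM with 0.1 or 1 added, H2-DMb1 and H2-DMb2 summed, and leaving out each ovary in turn.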

Additional observations from a re-analysis of the deposited data

Results flagged for a closer look

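In the Control group, the only group with 4 ovaries and so the only one examined, single ovaries lay far from the other 3 in 8 of 69 sets of values, by the gap to the nearest ovary over the whole range. Chance alone gives about 1 in 20 such sets, and many of the sets are not independent. Control replicate 33 was highest in 5 of them. H2-Ob was at 3.50 CPM there, against 0.810 to 1.01 CPM in the others, Ctss at 77.1 against 58.9 to 59.8 CPM, Gpnmb at 88.1 against 60.8 to 62.9 CPM, Ovgp1 at 298 against 1.28 to 6.36 CPM, and the summed oviduct markers at 497 against 60.2 to 91.4 CPM. Control replicate 34 had Fcer1g at 17.2 CPM, against 14.8 to 15.1 CPM, and a Cd74 share of 50.6% of the class II FPKM, against 52.2% to 52.5%. In Control replicate 32, H2-Aa relative to H2-Ab1 was 1.46, against 1.14 to 1.18. The causes were not tested.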

How the results depend on the processing

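Of 513 values for single class II genes under the alternatives, 499 moved by less than 1 SD between ovaries, 14 moved by more, and 0 of the values called at adjusted p changed sign. Of the 14, 8 came with 1 added to FPKM, 4 without Aged replicate 34 and 2 with the replicate number as a block. The median log2 fold change of the class II genes moved in Aged vs Control with 1 added to FPKM, to 0.63. With 0.1 added to FPKM the median of all genes shifted by -0.14 there. In Aged+CF vs Control the folds of H2-DMb2, H2-Oa and H2-Ob changed sign in 1, 3 and 5 of 17 alternatives. Class II genes called at unadjusted p in Aged+CF vs Aged were 5 without the filter (6.03% of all genes) and 0 with 1 added to FPKM (3.10%). They were 2 with the replicate number as a block (4.68%) and 1 with 0.1 added (7.74%) or with only the compared groups (5.77%). In Aged+CF vs Control they were 4 with only the compared groups (10.6%), 1 with 0.1 (7.82%) or 1 (3.69%) added and 0 with the block (6.92%).

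Counts of called pathway genes moved more. DESeq2's Wald test at adjusted p called 14 between Aged and Control, 1 between Aged+CF and Aged and 3 between Aged+CF and Control, and with only the compared groups in the fit 1 was called in the last. At unadjusted p, 11 were called between Aged and Control and 2 between Aged+CF and Aged with 0.1 added to FPKM, 8 and 1 with 1 added, and 3 in Aged+CF vs Control with 1 added. Only the compared groups in the fit gave 3 in Aged+CF vs Aged. Of the 10 class II genes, limma called 4 at adjusted p between Aged and Control with 0.1 (12.1% of all genes) or 1 (7.88%) added to FPKM, and edgeR 6 without the filter (4.56%) or with only the compared groups (7.51%). With the replicate number as a block, edgeR called 0 of these 10 at adjusted p (0.422% of all genes). It called 8 at unadjusted p (15.7%), and their median log2 fold change was 1.18. Of the pathway genes edgeR called 0 between Aged and Control at adjusted p and 12 at unadjusted p. A block leaves fewer degrees of freedom, and the part of this in the counts was not tested. The labels do not say what the numbers mean. For ovaries with the same number, residuals correlated at 0.14, -0.18 and 0.07 between Aged and Control. They correlated at -0.09 and 0.15 between Aged+CF and Control, and at -0.06 between Aged+CF and Aged. For ovaries with different numbers they ran from -0.19 to 0.19. Pairs this few cannot show whether ovaries with the same number share a batch. The cause of the lower counts was not tested.

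Leaving out each ovary in turn gave 4 to 9 pathway genes at adjusted p and 11 to 17 at unadjusted p in Aged vs Control, 0 to 2 and 2 to 8 in Aged+CF vs Aged, and 0 to 1 and 4 to 7 in Aged+CF vs Control. The lowest was without Control replicate 32 in the first count and without Aged replicate 34 in the second. The median log2 fold change of the 10 class II genes ran from 0.93 to 1.45, from -0.89 to -0.37 and from 0.30 to 0.72.

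The groups hold 3 or 4 ovaries, so a single ovary, above all Aged replicate 34, moves many values. Genes with few counts, H2-DMb2, H2-Oa and H2-Ob, are limited by depth. Bulk RNA does not separate cell numbers from RNA per cell, and markers of leukocytes and oocytes differed between ovaries along with the class II genes. Oviduct markers differed between ovaries too, with r = 0.37 to the class II genes, or -0.20 without Aged replicates 34 and 31. Age and treatment were each given to separate mice, and batches are not stated.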
